A study of Mus musculus with 16 samples.

Results

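The genes described here are 10 genes of lymphoid tissue organization, chosen by name: the chemokines Ccl19, Ccl21a, Cxcl12 and Cxcl13, the receptors Cxcr4 and Cxcr5, and the lymphotoxin and RANK ligand genes Lta, Ltb, Ltbr and Tnfsf11. They were 10 of 22298 genes with a row in the count data, and all 10 were among the 16817 genes with at least 10 reads over all tumors that entered the tests. RNA was sequenced from abdominal tumors of wild-type, 6-week-old 615-line mice, male or female and matched for sex, that had each received 500000 MFC cells (mouse forestomach carcinoma, a murine gastric cancer line) into the peritoneal cavity. The vehicle group (n = 8) was injected intraperitoneally with PBS and the IL-33 treatment group (n = 8) with IL-33 at 20 μg/kg, every 2 days. The tumors sequenced were those whose RNA quality sufficed, so they were a selection among the tumors grown. Each library holds tumor cells together with the host cells in the piece. In such bulk RNA, fewer cells of a type and less RNA per cell cannot be told apart. Nothing in the labels says more about the origin of each tumor, so p-values measure the spread between these 16 tumors. The paper's methods give fewer than 8 mice per group for this tumor model, while a survival experiment in its appendix had more than 8. For sequencing it gives 8 tumor samples per group and no number of mice. Some tumors may share a mouse, which is not known and which the tests do not take into account.

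Homeostatic chemokines place lymphocytes and dendritic cells within lymph nodes and spleen. CCL19 and CCL21 from stromal cells and lymphatic or high endothelial vessels guide T cells and mature dendritic cells that carry CCR7, while CXCL13 guides B cells that carry CXCR5 into follicles. CXCL12, made by fibroblast-like stromal cells and endothelium, holds CXCR4-bearing leukocytes and progenitors in their niches. Lymphotoxin, made of the LTA and LTB chains on lymphocytes and inducer cells, binds the lymphotoxin β receptor on stromal cells and drives the non-canonical NF-κB pathway, and RANK ligand (Tnfsf11) belongs to the same cytokine family.

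Ccl21a has copies on chromosome 4 with nearly the same coding sequence, so reads from the shared part may be counted on either. A 149-base stretch of the coding sequence is printed because it holds both differences between Ccl21a (GRCm38 chr4:42772860-42773993, minus strand) and Ccl21b (chr4:42255767-42256432, plus strand). Coding bases 67 to 215 are shown from the GENCODE M21 transcripts, counted from 1 at the A of the start codon, with the differing bases in capitals.
Ccl21a: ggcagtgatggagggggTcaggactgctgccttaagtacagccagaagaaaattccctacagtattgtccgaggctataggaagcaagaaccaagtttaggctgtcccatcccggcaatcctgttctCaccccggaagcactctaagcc
Ccl21b: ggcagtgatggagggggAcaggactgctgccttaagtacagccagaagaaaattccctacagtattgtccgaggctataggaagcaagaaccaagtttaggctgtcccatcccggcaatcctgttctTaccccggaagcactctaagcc
The differences over the 402 coding bases were T84A and C194T, with the base of Ccl21a first. The transcript of Gm10591 (chr4:42612195-42612860) was identical to that of Ccl21b. Of the 50-base stretches of the Ccl21b transcript, 71.7% were also in that of Ccl21a, while 30.8% of those of the longer Ccl21a transcript (870 against 402 bases) were in that of Ccl21b.

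The promoters of the 4 chemokine ligands are shown because IL-33 tumor 7 was the highest tumor for 3 of them. For Cxcl13 it was the next highest, after vehicle tumor 2. Each is the 250 bases before the gene's start in RefSeq on GRCm38.p6, read 5′ to 3′ on the gene's strand. RefSeq windows were matched for 9 of the 10 genes. By the GENCODE M21 bounds, most of the Ccl19 window lies inside the gene, whose 5′ end there is at 42756577. The windows of Ltb and, only at its edge, Ccl21a also reach into their genes. Capitals mark the letters GGGAGATTT, the beginning of a site known for RelB at Cxcl13, which was searched on both strands together with the NF-κB consensus.
Ccl19 (chr4:42756366-42756615, minus strand): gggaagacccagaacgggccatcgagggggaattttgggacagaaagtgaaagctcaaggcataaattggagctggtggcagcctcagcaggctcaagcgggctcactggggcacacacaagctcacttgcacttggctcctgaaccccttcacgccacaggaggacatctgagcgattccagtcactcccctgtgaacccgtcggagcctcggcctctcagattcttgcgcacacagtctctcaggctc
Ccl21a (chr4:42773992-42774241, minus strand): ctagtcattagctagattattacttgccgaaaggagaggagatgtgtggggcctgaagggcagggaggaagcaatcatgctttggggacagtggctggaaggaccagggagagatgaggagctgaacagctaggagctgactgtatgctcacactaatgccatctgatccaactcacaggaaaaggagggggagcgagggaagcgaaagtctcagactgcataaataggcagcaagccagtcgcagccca
Cxcl12 (chr6:117168285-117168534, plus strand): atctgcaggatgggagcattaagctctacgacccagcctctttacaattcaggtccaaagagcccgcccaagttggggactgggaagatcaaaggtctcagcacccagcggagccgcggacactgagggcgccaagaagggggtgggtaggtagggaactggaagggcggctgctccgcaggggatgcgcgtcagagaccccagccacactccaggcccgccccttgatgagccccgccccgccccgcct
Cxcl13 (chr5:95956689-95956938, plus strand): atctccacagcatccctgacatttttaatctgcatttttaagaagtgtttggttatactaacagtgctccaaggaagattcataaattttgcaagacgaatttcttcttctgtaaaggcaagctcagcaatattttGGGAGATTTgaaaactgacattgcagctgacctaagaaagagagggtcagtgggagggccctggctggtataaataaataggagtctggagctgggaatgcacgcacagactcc
The letters GGGAGATTT stood 114 to 106 bases before the start of Cxcl13 and in 0.283% of all 32851 RefSeq windows of this length. The NF-κB consensus was in 3.9% of the windows and, among the 9 genes, in that of Ltb, on the opposite strand, as GGAAAGTCCC. The other windows held neither. A match describes letters in a window and is not a measured site.

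Total counts lay between 14139268 and 24290794 per tumor. All values below are CPM, reads scaled to the tumor's total count (counts per 1000000 reads), unless another scale is named. The 5 keratin and adhesion genes listed as epithelial markers (Krt8, Krt18, Krt19, Epcam and Cdh1) summed to between 236 and 1550 CPM in the 16 tumors. Of these, Krt18, Epcam and Cdh1 were at most 1.83, 2.40 and 3.01 CPM outside IL-33 tumor 7. In that tumor they were at 159, 98.8 and 104 CPM, so the sum is no even measure of tumor cells. IL-33 tumor 7 stood apart: 14 of 14 genes of the female reproductive tract were highest there, with a sum of 2490 CPM against at most 28.1 in the other tumors. Vehicle tumor 4 had the smallest TMM factor (0.640), the scaling that edgeR computes for RNA composition, and IL-33 tumor 7 the largest (1.24). The comparison of each of the 10 genes is therefore given with and without IL-33 tumor 7. Over all genes, 7230 of 16817 (43%) had their highest value in that tumor, and of the 10 genes described here 4 did (Ccl19, Ccl21a, Cxcl12 and Cxcr4), a share near that of all genes.

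None of the 10 genes passed an adjusted p of 0.05 between the groups, with or without IL-33 tumor 7. The same held for all genes: edgeR's quasi-likelihood test with Benjamini-Hochberg adjustment called 0 of 16817 (0%) over all tumors and 0 of 15803 (0%) without IL-33 tumor 7. At an unadjusted p under 0.05, edgeR gave 1876 genes (11.2%) over all tumors and 651 (4.12%) without that tumor, while DESeq2 gave 691 and limma voom with quality weights 966 over all tumors, with 0 after adjustment. Ccl21a was the only one of the 10 under an unadjusted p of 0.05, in either fit, and its sign was opposite between the fits. The median fitted log2 change of the 10 genes was 0.35 over all tumors and −0.10 without IL-33 tumor 7, against 0.06 and −0.01 over all genes tested. Of the 10, 8 were fitted higher in the IL-33 treatment group over all tumors and 4 without IL-33 tumor 7. Over all genes tested, 9805 of 16817 and 7574 of 15803 were fitted higher.

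**Figure D1:**
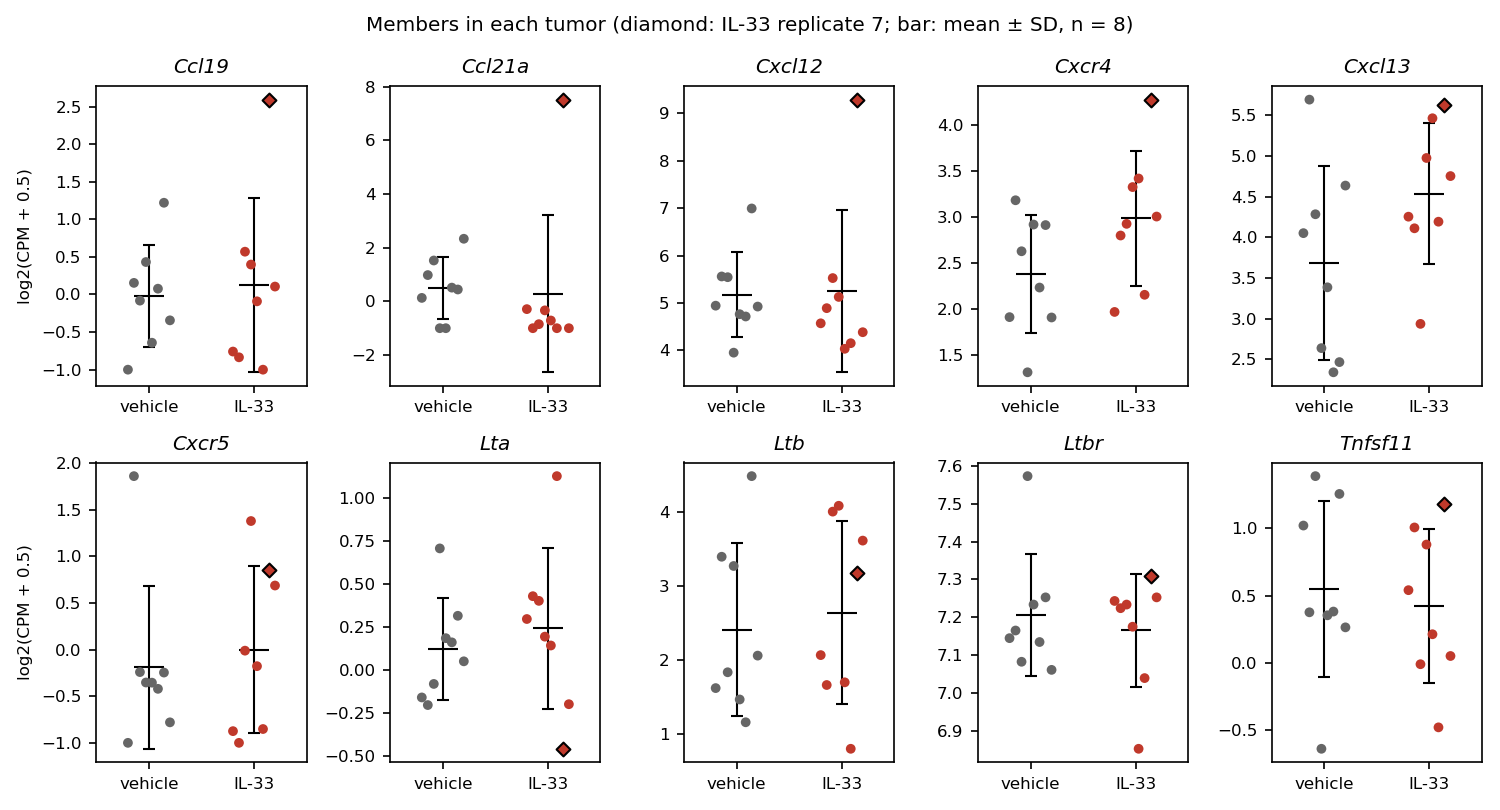
Level of each of the 10 genes in each tumor as log2(CPM + 0.5), with 8 vehicle tumors (gray) and 8 IL-33 tumors (red). Black lines give the mean ± SD of the group, and the diamond is IL-33 tumor 7, which lies far above the other tumors for Ccl21a (182 CPM) and Cxcl12 (625 CPM). The vertical scale differs between panels.

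The CCR7 ligands came first in the order of roles. Ccl21a, a gene for CCL21, had 12, 24, 48, 0, 0, 15, 15 and 110 reads in vehicle tumors 1 to 8. In IL-33 tumors 1 to 8 it had 7, 0, 1, 5, 2, 0, 3196 and 0 reads. IL-33 tumor 7 thus held 99.5% of the group's reads, and 6 of 8 vehicle tumors were above all 7 other IL-33 tumors. The 5 tumors without a read could hold between 0.124 and 0.212 CPM, the level of 3 reads, and such limits cover counting error only.

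In CPM, Ccl21a was at 0, 0.891 and 4.53 (lowest, median, highest) in the vehicle group and at 0, 0.0822 and 182 in the IL-33 treatment group. The means were 1.34 ± 1.5 (SD, n = 8) and 22.9 ± 64.4 (SD, n = 8), and the 7 IL-33 tumors other than tumor 7 had 0.111 ± 0.139 (SD). The edgeR log2 change was 3.78 ± 1.72 (SE, unadjusted p = 0.0423, adjusted p = 0.427) over all tumors. With IL-33 tumor 7 left out it was −3.52 ± 1.02 (SE, unadjusted p = 0.00329, adjusted p = 0.964), and 0 of the 7 tumors left were above the vehicle mean. Leaving out any of vehicle tumors 1 to 7 also took the unadjusted p over all tumors past 0.05, to between 0.0527 and 0.0679 by edgeR, with log2 changes of 3.54 to 3.96.

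The mean of log2(CPM + 0.5), on which a single tumor weighs less, gave another sign than edgeR for Ccl21a over all tumors. The difference was −0.20 (exact permutation p = 0.935, two-sided) over all tumors and −1.23 (exact permutation p = 0.0171) without IL-33 tumor 7. The same permutation test, applied to each gene alone and not adjusted, gave p under 0.05 for 2.71% of all genes over all tumors and for 2.78% without that tumor. Of the 10 genes, 0 passed it over all tumors and 1, Ccl21a, without IL-33 tumor 7. A share of 1 in 10 genes rests on a single gene.

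Of its copies, Ccl21b and Gm10591 had their reads in the same treated tumor. Ccl21b had 26 reads in the vehicle group as a whole and 750 in the IL-33 treatment group, all of them in tumor 7. Gm10591 had the same count as Ccl21b in 16 of 16 tumors, so the division of reads between these identical transcripts is uncertain. With the copies summed, the edgeR log2 change of Ccl21a was 4.02 (unadjusted p = 0.0357, adjusted p = 0.420). With the equal rows taken once, a setting chosen after the values were seen, it was 3.92 (unadjusted p = 0.0381, adjusted p = 0.423), and −3.39 (unadjusted p = 0.005, adjusted p = 0.964) when IL-33 tumor 7 was also left out. Ccl21b alone was fitted at −4.62 (unadjusted p = 0.00698, adjusted p = 0.964) without that tumor. The other copies, Gm13304 with 6 reads and Gm21541 with 0 reads in all, had none in IL-33 tumor 7.

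Markers of lymphatic endothelium, the main non-nodal source of CCL21, were measured beside it. All 6 genes of the list were highest in IL-33 tumor 7, as were 7230 of all 16817 genes tested (43%) and all 6 blood endothelial genes. The lymphatic sum there was 242 CPM, against 14.5 to 96.4 in the vehicle group and 7.58 to 36.6 in the other IL-33 tumors. Prox1, the transcription factor that defines these vessels, was at 0 to 0.593 CPM in the vehicle group and at 4.62 CPM in IL-33 tumor 7. With that tumor left out, 5 of the 6 genes were fitted below the vehicle group, as were 8229 of all 15803 genes tested. At an unadjusted p under 0.05 by edgeR 362 of all genes were lower, and so were 2 of the 6. These were the vessel protein gene Mmrn1 (log2 change −2.45, unadjusted p = 0.0109) and podoplanin, Pdpn (log2 change −0.74, unadjusted p = 0.0296). Of the 7 tumors left, 0 were above the vehicle mean for Mmrn1 and 1 for Pdpn. The part of these vessels in the Ccl21a result was not tested.

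Ccl19 (chr4:42754525-42756577, minus strand), the other CCR7 ligand, was low throughout. It was at 0, 0.5 and 1.83 CPM (lowest, median, highest) in the vehicle group and at 0, 0.508 and 5.53 in the IL-33 treatment group. The groups overlapped except for IL-33 tumor 7, which held 97 reads and was 3.02 times as high as the next tumor, vehicle tumor 7 with 32. The edgeR log2 change was 0.54 ± 0.97 (SE, adjusted p = 0.901), and −0.59 ± 0.82 (SE, adjusted p = 0.964) without IL-33 tumor 7, so the sign of Ccl19 turned with that tumor as that of Ccl21a did.

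Cxcl12 (chr6:117168535-117181367, plus strand), the stromal ligand of CXCR4, was at 15, 30.1 and 127 CPM (lowest, median, highest) in the vehicle group and at 15.9, 26.2 and 625 after IL-33. The highest value of each group came from its tumor 7, and the medians differed less than the spread within a group. The means were 43.5 ± 35.5 and 101 ± 212 (SD, n = 8 each), and 26.6 ± 10.7 (SD, n = 7) without IL-33 tumor 7, which held 75.7% of its group's reads. The edgeR log2 change was 0.99 ± 0.72 (SE, unadjusted p = 0.184, adjusted p = 0.654) and without IL-33 tumor 7 −0.71 ± 0.34 (SE, unadjusted p = 0.0549, adjusted p = 0.964). Then 1 of 7 treated tumors exceeded the vehicle mean, and the exact permutation p was 0.223.

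The 7 fibroblast genes (collagens, Pdgfra, Pdgfrb, Dcn, Lum and Thy1) were set beside Cxcl12. Their sum was 456 to 5290 CPM in the vehicle group, 601 to 3230 CPM in the other IL-33 tumors and 12000 CPM in IL-33 tumor 7. All 7 were highest in that tumor, as were 43% of all genes tested. In vehicle tumor 7 the sum was 4500 CPM, with Cxcl12 at 127 CPM. Vehicle tumor 3 had the highest sum of its group (5290 CPM), but Cxcl12 there was at 46.2 CPM. The blood endothelial list of 6 genes was also highest in IL-33 tumor 7, at 889 CPM against 92.4 to 232 CPM elsewhere.

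Cxcr4 (chr1:128588199-128592293, minus strand), the CXCL12 receptor of leukocytes, had the smallest unadjusted p after Ccl21a over all tumors. It was at 1.98, 4.94 and 8.58 CPM (lowest, median, highest) in the vehicle group and at 3.41, 7.32 and 18.9 in the IL-33 treatment group. The groups overlapped, with 6 of 8 treated tumors over the vehicle mean and 3 over every vehicle tumor. The means were 5.13 ± 2.31 and 8.39 ± 4.87 (SD, n = 8 each). The edgeR log2 change was 0.61 ± 0.32 (SE, unadjusted p = 0.0696, adjusted p = 0.493), and 0.41 ± 0.28 (SE, unadjusted p = 0.168, adjusted p = 0.964) without IL-33 tumor 7. The fitted sign of Cxcr4 was the same in both fits.

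**Figure D2:**
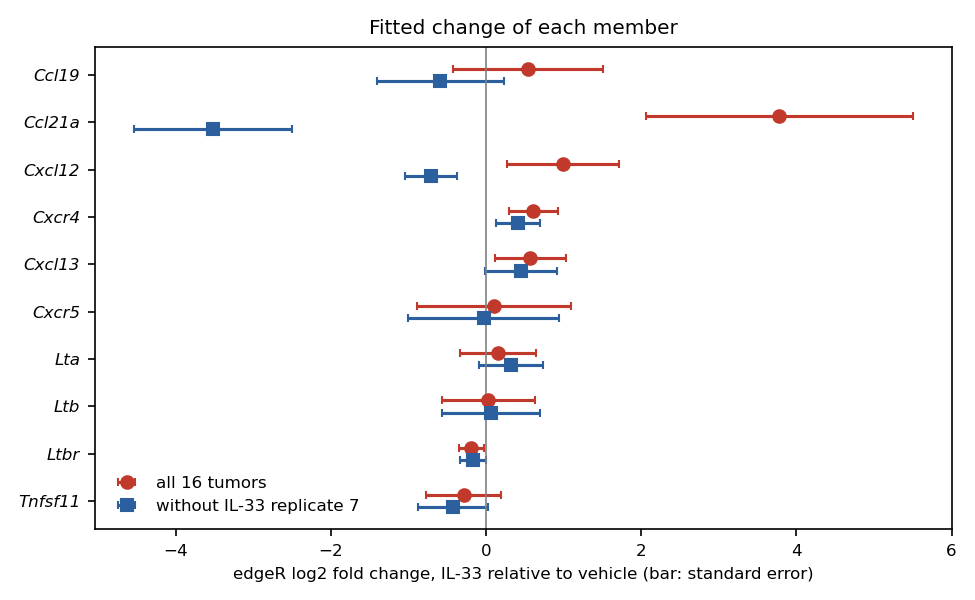
edgeR log2 fold change of each of the 10 genes in the IL-33 treatment group relative to the vehicle group (horizontal axis), over all 16 tumors (red circles) and without IL-33 tumor 7 (blue squares). Bars are standard errors. Ccl21a moved from 3.78 to −3.52, Cxcl12 from 0.99 to −0.71 and Ccl19 from 0.54 to −0.59, while Cxcr4 (0.61 and 0.41) and Cxcl13 (0.57 and 0.45) stayed on the right of 0.

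Cxcl13 (chr5:95956951-95961068, plus strand), the B cell follicle chemokine whose promoter is printed above, was at 4.57, 13 and 51.3 CPM (lowest, median, highest) in the vehicle group. After IL-33 it was at 7.16, 22.6 and 48.9 CPM. The highest tumor was vehicle tumor 2 (51.3 CPM), followed closely by IL-33 tumor 7 (48.9 CPM), and 6 of 8 treated tumors exceeded the vehicle mean. The edgeR log2 change was 0.57 ± 0.46 (SE, unadjusted p = 0.226, adjusted p = 0.695), and 0.45 ± 0.47 (SE, adjusted p = 0.964) without IL-33 tumor 7. Vehicle tumor 2 decided how large the difference was: without it the edgeR log2 change was 1.03 (unadjusted p = 0.0219) and the difference of mean log2(CPM + 0.5) was 1.14 (exact permutation p = 0.0328).

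Cxcr5 (chr9:44511787-44561877, minus strand), the CXCL13 receptor of follicular B cells, was near the limit of detection, with 0 to 51 reads per tumor. It was at 0, 0.283 and 3.13 CPM (lowest, median, highest) in the vehicle group and at 0, 0.438 and 2.10 after IL-33. Its log2 change by edgeR was 0.10 ± 0.99 (SE, adjusted p = 0.986), and −0.03 ± 0.97 (SE, adjusted p = 0.995) without IL-33 tumor 7. The high tumors were vehicle tumor 2 and IL-33 tumors 4, 7 and 8, and the same 4 tumors had the highest sums of the 10 B cell genes (85.4, 59.7, 34.3 and 41.8 CPM). In the other 12 tumors that sum was at most 16.3 CPM.

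The lymphotoxin genes differed little between the groups. Lta (chr17:35203165-35205351, minus strand), the soluble chain, was at 0.368, 0.576 and 1.13 CPM (lowest, median, highest) in the vehicle group and at 0.228, 0.685 and 1.68 after IL-33. Its edgeR log2 change was 0.15 ± 0.49 (SE, adjusted p = 0.954), and 0.32 ± 0.41 (SE, adjusted p = 0.964) without IL-33 tumor 7. That tumor was the lowest of all 16 for Lta, with 4 reads, while it was the highest for Ccl19, Ccl21a and Cxcl12.

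Ltb (chr17:35194439-35196320, plus strand), the membrane chain that anchors lymphotoxin on the cell surface, varied among tumors more than between groups. It was at 1.73, 3.36 and 21.8 CPM (lowest, median, highest) in the vehicle group and at 1.24, 6.11 and 16.4 in the IL-33 treatment group. By edgeR the log2 change was 0.03 ± 0.60 (SE, adjusted p = 0.994), and 0.06 ± 0.63 (SE, adjusted p = 0.994) without IL-33 tumor 7. The 4 tumors with most Ltb (vehicle tumor 7 and IL-33 tumors 3, 4 and 8) had the highest sums of the 9 T cell genes, from 53.0 to 87.5 CPM against at most 28.0 in the other 12.

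Ltbr (chr6:125306571-125313885, minus strand), the receptor of both chains together, was the steadiest of the 10 genes. It was at 133, 142 and 190 CPM (lowest, median, highest) in the vehicle group and at 115, 150 and 158 in the IL-33 treatment group. The means were 148 ± 18.2 and 144 ± 14.2 (SD, n = 8 each), with vehicle tumor 4 highest. By edgeR the log2 change was −0.19 ± 0.16 (SE, adjusted p = 0.727), and −0.17 ± 0.17 (SE, adjusted p = 0.964) without IL-33 tumor 7. Without vehicle tumor 4 it was 0.0019.

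Tnfsf11 (chr14:78277445-78308043, minus strand), RANK ligand, which lymphoid inducer and stromal cells use in lymph node formation, had 2 to 43 reads per tumor. It was at 0.141, 0.799 and 2.12 CPM (lowest, median, highest) in the vehicle group and at 0.216, 0.806 and 1.77 in the IL-33 treatment group. The groups overlapped over nearly their whole range, and the edgeR log2 change was −0.29 ± 0.48 (SE, adjusted p = 0.885), and −0.43 ± 0.45 (SE, adjusted p = 0.964) without IL-33 tumor 7.

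Levels between genes were compared per length, as RPKM over the exon length of the gene in GENCODE M21. In the vehicle group the receptor Ltbr had the highest median level (60.3 RPKM), followed by Cxcl13 (11.3), Cxcl12 (3.68), Cxcr4 (2.73), Ltb (2.22) and Ccl21a (1.02). Ccl19 (0.577), Lta (0.417), Tnfsf11 (0.358) and Cxcr5 (0.0848) had median levels under 1 RPKM. Among neighbors in this order, the ranges of the 8 tumors were apart only between Ltbr and Cxcl13. The receptor of lymphotoxin was thus measured at a far higher level than either of its chains.

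Other genes of the same pathways were counted from 4 lists. Over all genes, 1876 of 16817 (11.2%) had an unadjusted p under 0.05 by edgeR, and 651 of 15803 (4.12%) without IL-33 tumor 7. Of 8 chemokine receptor and lymphocyte egress genes, 0 had an unadjusted p under 0.05 by edgeR over all tumors. The smallest p was that of S1pr1, the sphingosine phosphate receptor of egress (log2 change 0.66, unadjusted p = 0.0855, and 0.19 without IL-33 tumor 7). With IL-33 tumor 7 left out, the chemokine scavenger Ackr2 was fitted at −1.12 (unadjusted p = 0.0354), and 0 of the 7 tumors were above the vehicle mean for Ackr2. Ccr7, the receptor of CCL19 and CCL21, was at 1.21 ± 1.63 CPM in the vehicle group and 2.45 ± 1.89 CPM in the IL-33 treatment group (SD, n = 8 each), with an edgeR log2 change of 0.97 (unadjusted p = 0.172) and of 1.03 (unadjusted p = 0.155) without IL-33 tumor 7.

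Of 16 genes of the TNF, lymphotoxin and RANK pathway, 1 had an unadjusted p under 0.05 by edgeR, beside 11.2% of all genes. This was Tnfrsf1b, a TNF receptor that also binds soluble lymphotoxin, at 84.7 ± 13.6 CPM in the vehicle group and 105 ± 12.3 CPM in the IL-33 treatment group (SD, n = 8 each). It was above the vehicle mean in 8 of 8 IL-33 tumors, and its edgeR log2 change was 0.24 ± 0.11 (SE, unadjusted p = 0.0421, adjusted p = 0.427). The log2 change was 0.28 without IL-33 tumor 7 (unadjusted p = 0.0129), and the exact permutation p over all tumors was 0.00404, not adjusted. With each tumor left out, the unadjusted p by edgeR was 0.0129 to 0.101, and under 0.05 in 7 of 16 fits. With the replicate block it was 0.112. Vehicle tumor 4 was the lowest of all tumors for Tnfrsf1b, at 56.6 CPM. Of the non-canonical NF-κB genes downstream of the lymphotoxin β receptor, Relb had an edgeR log2 change of −0.20 (unadjusted p = 0.360), Nfkb2 of −0.17 (unadjusted p = 0.389) and the kinase gene Map3k14 of 0.15 (unadjusted p = 0.550). Without IL-33 tumor 7 they were at −0.17, −0.06 and 0.21. Birc3 of the same list was at 0.40 (unadjusted p = 0.0518), and at 0.37 without that tumor. Traf2, Traf3 and Chuk were at −0.08, −0.10 and 0.02 over all tumors. These genes were picked for their place in the pathway after their values were seen.

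Of 8 genes of high endothelial venules and adhesion, 7 could be tested, 0 had an unadjusted p under 0.05 and 7 were fitted higher, as were 9805 of all 16817 genes. Without IL-33 tumor 7, 6 of the 7 were. Cd34 (log2 change 0.70, unadjusted p = 0.0947, and 0.14 without IL-33 tumor 7) and Icam1 (0.62, unadjusted p = 0.251, and 0.29) had the smallest p by edgeR. Of the genes tied most closely to high endothelial venules, Glycam1 had 9 reads and Chst4 had 17 reads over all 16 tumors, Madcam1 had 151 and Fut7, which leukocytes also express, had 338. Of 7 genes of lymphoid inducer cells, 5 could be tested and 2 had an unadjusted p under 0.05 by edgeR, beside 11.2% of all genes. Over all tumors these were Id2 and Kit. Without IL-33 tumor 7, 2 of the 5 were under 0.05, beside 4.12% of all genes. These were Id2 and the IL-7 receptor gene Il7r (log2 change 0.77, unadjusted p = 0.049). Over all tumors Il7r was at 0.78 (unadjusted p = 0.0582). Id2, a regulator that innate lymphoid cells need, was at 28.3 ± 6.19 and 45.0 ± 19.1 CPM (SD, n = 8 each; log2 change 0.59 ± 0.24 SE, unadjusted p = 0.0253, adjusted p = 0.418). Its log2 change was also 0.59 (unadjusted p = 0.0341) without IL-33 tumor 7, with 5 of 7 tumors above the vehicle mean. Kit, the stem cell factor receptor, had a log2 change of 1.19 (unadjusted p = 0.0461) that was 0.15 (unadjusted p = 0.604) without IL-33 tumor 7, where it stood at 41.2 CPM. The inducer cytokines Il17a and Il22 had 0 and 2 reads in all.

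**Figure D3:**
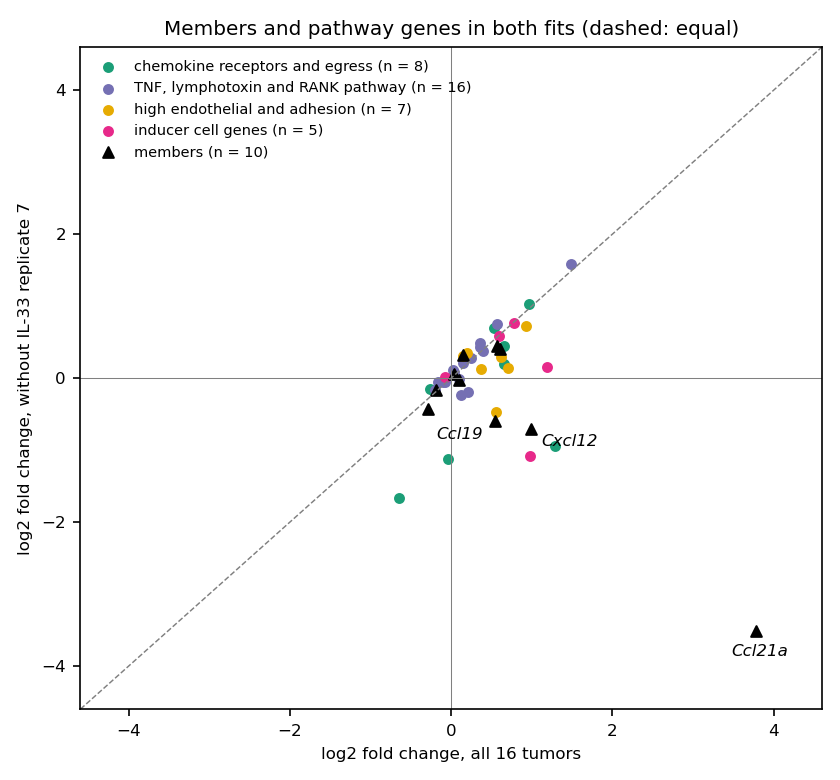
edgeR log2 fold change over all 16 tumors (horizontal axis) against the change without IL-33 tumor 7 (vertical axis) for the 10 genes (black triangles) and 36 tested genes of the 4 pathway lists (circles). On the dashed line both fits are equal; Ccl21a lies farthest from it (3.78 and −3.52).

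Across tumors, 8 pairs of ligands, chains and receptors were compared on log2(CPM + 0.5), with 100000 resamples in each permutation test and Benjamini-Hochberg adjustment over the 8 pairs. No pair had an adjusted p under 0.05 for Spearman's rho. Ccl19 and Ccr7 gave r = 0.57 (permutation p = 0.0154, adjusted p = 0.0411) and rho = 0.56 (permutation p = 0.0259, adjusted p = 0.0979). When IL-33 tumor 7 was left out r was 0.68 (permutation p = 0.00593, adjusted p = 0.0474), and without the 2 tumors farthest from the median of Ccl19 it was 0.60 (permutation p = 0.0251). Within the groups r was 0.73 (vehicle, exact permutation p = 0.0419) and 0.56 (IL-33, exact permutation p = 0.141). The relation was thus positive in both groups, although rho did not pass the adjustment. Ccl21a, the other CCR7 ligand, gave r = 0.07 (permutation p = 0.854) and rho = 0.04 (permutation p = 0.871) with Ccr7. Lta and Ltb gave r = −0.22 (permutation p = 0.429) and rho = −0.07 (permutation p = 0.788).

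In other pairs r and rho differed, or changed with few tumors or the scaling. Cxcl12 and Cxcr4 gave r = 0.63 (permutation p = 0.00912, adjusted p = 0.0411) and rho = 0.37 (permutation p = 0.157), and r was 0.34 (permutation p = 0.223) without IL-33 tumor 7. Ccl19 and Ccl21a gave r = 0.69 (permutation p = 0.021, adjusted p = 0.0421) and rho = 0.29 (permutation p = 0.283), with r = 0.05 without the 2 tumors farthest from the median, so the relation rests on those tumors. Cxcl13 and Cxcr5 gave r = 0.49 (permutation p = 0.0504) and rho = 0.53 (permutation p = 0.0367, adjusted p = 0.0979), and without the 2 tumors farthest from the median of Cxcl13 r was 0.54 (permutation p = 0.0451) and rho 0.61 (permutation p = 0.0235). Ltb and Ltbr gave rho = 0.58 (permutation p = 0.0197, adjusted p = 0.0979), but −0.02 (permutation p = 0.943) when library sizes were scaled by TMM. Tnfsf11 and its receptor gene Tnfrsf11a gave r = 0.58 (permutation p = 0.0123, adjusted p = 0.0411) and rho = 0.33 (permutation p = 0.212), with r = 0.37 without the 2 tumors farthest from the median of Tnfsf11.

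The relation of 4 of the genes to the summed markers of the cells known to make them was computed in the same way, with adjustment over these 4, chosen after the values were seen. Cxcr5 and the B cell sum gave r = 0.92 (permutation p = 0.00001, the smallest that 100000 resamples can give, adjusted p = 0.00002) and rho = 0.86 (permutation p = 0.00005, adjusted p = 0.0002). Without the 2 tumors farthest from the median of Cxcr5, r was 0.85 (permutation p = 0.00021), and within the groups it was 0.91 (vehicle, exact permutation p = 0.0262) and 0.97 (IL-33, exact permutation p = 0.00109), with rho of 0.69 (exact permutation p = 0.0694) and 0.88 (exact permutation p = 0.00724). Tumors with more Cxcr5 were thus those with more of the B cell genes.

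Ltb and the T cell sum gave r = 0.83 (permutation p = 0.00007, adjusted p = 0.000093) and rho = 0.76 (permutation p = 0.00112, adjusted p = 0.00149), with r = 0.73 (permutation p = 0.00277) without the 2 tumors farthest from the median. Within the groups r was 0.66 (vehicle, exact permutation p = 0.0627) and 0.95 (IL-33, exact permutation p = 0.000174), with rho of 0.52 (exact permutation p = 0.197) and 0.95 (exact permutation p = 0.00114). Cxcl12 and the fibroblast sum gave r = 0.89 (permutation p = 0.00001, adjusted p = 0.00002) and rho = 0.77 (permutation p = 0.00076, adjusted p = 0.00149). Without vehicle tumor 7 and IL-33 tumor 7, the farthest from the median, r was 0.81 (permutation p = 0.00024), and within the groups it was 0.80 (vehicle, exact permutation p = 0.0205) and 0.95 (IL-33, exact permutation p = 0.000868). The ranks gave 0.48 (vehicle, exact permutation p = 0.243) and 0.88 (IL-33, exact permutation p = 0.00724), so in the vehicle group alone none of these 3 relations passed by ranks.

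Ccl21a did not follow its marker sum in that way. With the lymphatic endothelial sum it gave r = 0.72 (permutation p = 0.00571, adjusted p = 0.00571) and rho = 0.43 (permutation p = 0.1, adjusted p = 0.1). Without IL-33 tumor 7 r was 0.37 (permutation p = 0.181), and in the vehicle group alone it was 0.20 (exact permutation p = 0.645), so the relation rests on IL-33 tumor 7. The sum weighs Lyve1 most, whose vehicle mean was 28.4 CPM, against 5.49 for Pdpn, the next gene, and 0.118 for Prox1. A relation to the less abundant genes of the list was therefore hardly measured by it. The copies of Ccl21a were not compared with this sum.

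**Figure D4:**
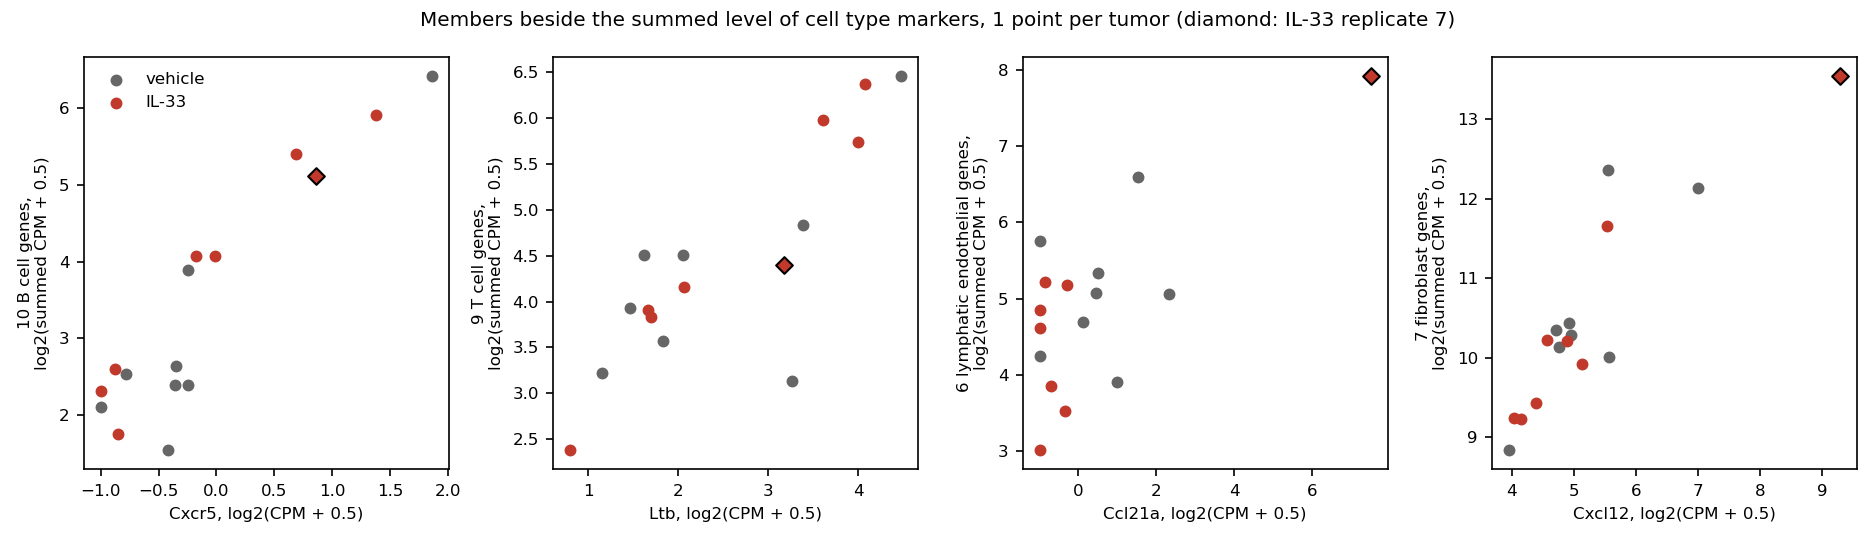
Each point is a tumor (gray vehicle, red IL-33, diamond IL-33 tumor 7). Horizontal axes give Cxcr5, Ltb, Ccl21a and Cxcl12, and vertical axes the summed CPM of 10 B cell, 9 T cell, 6 lymphatic endothelial and 7 fibroblast genes, all as log2(CPM + 0.5). Cxcr5 (r = 0.92) and Cxcl12 (r = 0.89) run along a line with their marker sums, and Ccl21a (r = 0.72) does so only through IL-33 tumor 7.

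The genes whose pattern over the 16 tumors was most like that of each gene were found by Spearman's rho among 13109 genes with a mean of at least 1 CPM, and are a description, since all points share their libraries. For Ltb they were Tap2, a peptide transporter for antigen presentation (rho = 0.96), Dok3, an adaptor of immune receptor signaling (0.95), and Sept1 (0.95). For Cxcl12 they were Chl1, a neural adhesion molecule (0.97), BC025920 (0.93) and Papss2, an enzyme of sulfate donor synthesis (0.93). For Cxcr4 they were R3hcc1l (0.90), Kif21b (0.90) and Etv6 (0.89), and for Cxcl13 Zbed3 (0.88), Adgrg6 (0.87) and Tctn3 (0.85). For Ltbr they included Slc25a14 (0.89), and for Tnfsf11 Mphosph8 (0.88) and Aco1 (0.86). Without IL-33 tumor 7, Chl1 remained at rho = 0.96 with Cxcl12 and Tap2 at 0.96 with Ltb. Ccl19, Ccl21a, Cxcr5 and Lta had 10 reads in too few tumors (between 4 and 10) for this comparison.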

How the data were processed

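Poly(A) RNA from 16 tumors (8 per group) was sequenced by a company. The authors deposited raw counts of reads per gene for each tumor, without normalization. The submitters' processing notes name HISAT2, featureCounts and the build mm10; versions, annotation release, strand, multimapping reads and the test are not given in the sources used here. Overlapping genes and near-identical copies may therefore share reads. Symbols and coordinates came from GENCODE M21 (GRCm38), which named 22255 of 22298 identifiers. Groups came from the sample labels.

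Genes with at least 10 counts over 16 tumors were tested with edgeR 4.0.16 (R 4.3.3; TMM, glmQLFit, glmQLFTest, Benjamini-Hochberg over all genes). Each of the 10 genes was also compared alone, on log2(CPM + 0.5), by the exact permutation of group labels (two-sided, 12870 assignments, 6435 without a tumor, smallest p 0.0002). The fits were tested on simulated data. Named pathway genes were those with an unadjusted p under 0.05, or otherwise the 2 smallest; 1 gene that this rule names is not reported here. Marker-list and pathway genes named beyond that rule were chosen after their values were seen. The genes and lists were chosen with earlier results of these data known. Alternatives were DESeq2 1.42.0, limma 3.58.1 voom, other normalizations and filters, a replicate block, and leaving out each tumor. No replicate pair agreed within counting noise (smallest chi-square per degree of freedom 8.79).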

Additional observations from a re-analysis of the deposited data

Results flagged for a closer look

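A tumor was picked out where its gap to the nearest other tumor of its group exceeded Dixon's critical value for 8 tumors. Over the 10 genes and both groups, 20 groups of values were examined and 11 had such a tumor. Chance gives about 1 in 20 only where the values are normally distributed and the groups of values independent. The CPM values were used without logarithms and all genes share the same tumors, so 11 of 20 cannot be set against that rate. In the IL-33 treatment group, tumor 7 stood high for Ccl19 (5.53 CPM), Ccl21a (182 CPM), Cxcl12 (625 CPM) and Cxcr4 (18.9 CPM), and tumor 6 for Lta (1.68 CPM). In the vehicle group, tumor 7 stood high for Ccl19 (1.83 CPM), Cxcl12 (127 CPM) and Ltb (21.8 CPM), tumor 2 for Cxcl13 (51.3 CPM) and Cxcr5 (3.13 CPM), and tumor 4 for Ltbr (190 CPM). Of these tumors, vehicle tumor 2 also had the highest B cell sum (85.4 CPM) and vehicle tumor 7 the highest T cell sum (87.5 CPM). The cause of these values was not tested.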

How the results depend on the processing

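The counts of genes and of members with an adjusted p under 0.05 were 0 under every alternative but one: DESeq2 without IL-33 tumor 7 called 1 gene, which was none of the 10. The number of the 10 genes with an unadjusted p under 0.05 was 1, and became 2 with DESeq2, 2 with DESeq2 without IL-33 tumor 7, 2 without both IL-33 tumor 7 and vehicle tumor 4, 0 with filterByExpr (which removed Ccl19, Ccl21a and Cxcr5, so that they had no value), 0 with the replicate block, and between 0 and 2 with each tumor left out. By the exact permutation test it was 0, and between 0 and 1 with each tumor left out; Cxcr4 passed without IL-33 tumor 1 (0.75, exact permutation p = 0.0409). Pairs with an adjusted p for rho under 0.05 were 0, and 1 with group means taken out (Ccl19 and Ccr7, rho 0.74, permutation adjusted p = 0.0138). The cause of these changes was not tested.

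Signs turned as follows on the log2 scale. With DESeq2, Ccl21a was at −2.45 and Cxcl12 at −0.69. With limma voom, Ccl19 was at −0.09, Ccl21a at −2.67, Cxcl12 at −0.46 and Cxcr5 at −0.12. For Ccl21a and Cxcl12 both fits thus had the sign of edgeR without IL-33 tumor 7 (−3.52 and −0.71). DESeq2 was run with its default replacement of outlier counts, and voom weighted tumors by quality. Neither fit therefore gives every tumor the same weight, although both were run over all tumors. With DESeq2 without IL-33 tumor 7, Ccl19 was at −0.64, Ccl21a at −3.60, Cxcl12 at −0.72 and Cxcr5 at −0.06. With copies summed, equal rows taken once and IL-33 tumor 7 left out, Ccl21a was at −3.39. Without IL-33 tumor 7 and vehicle tumor 4, Ccl19 was at −0.37, Ccl21a at −3.71, Cxcl12 at −0.80, Cxcr5 at −0.07 and Ltbr at 0.03. The difference of mean log2 values turned for Ccl21a with a pseudocount of 2 (0.25) and for Cxcl12 with TMM scaling (−0.02). The rank correlation (Spearman) of Ccl21a and Ccr7 was −0.02 without IL-33 tumor 7 and −0.07 with TMM scaling, and that of Ltb and Ltbr −0.02 with TMM scaling. With each tumor left out, the edgeR log2 change ranged from −3.52 to 4.37 for Ccl21a, from −0.71 to 1.43 for Cxcl12, from −0.59 to 0.96 for Ccl19, from −0.39 to 1.36 for Cxcr5, from −0.19 to 0.51 for Lta, from −0.21 to 0.48 for Ltb and from −0.22 to 0.0019 for Ltbr. Cxcr4 (0.41 to 0.75), Cxcl13 (0.39 to 1.03) and Tnfsf11 (−0.46 to −0.08) kept their sign. The difference of mean log2(CPM + 0.5), with each tumor left out, ranged from −0.21 to 0.32 for Ccl19, from −1.23 to 0.06 for Ccl21a, from −0.51 to 0.33 for Cxcl12, from −0.0036 to 0.49 for Cxcr5, from −0.01 to 0.22 for Lta, from −0.06 to 0.01 for Ltbr and from −0.30 to 0.0015 for Tnfsf11.

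The replicate numbers are only names: deviations of same-numbered tumors from their group means correlated between −0.37 and 0.40, and 2 of 8 tumors correlated best with their own number. With the replicate block, Ccl21a was at −2.06 and Cxcl12 at −0.06. No value with copies summed could be had for Ccl19, since it has no copy among the rows used. Reads limit Ccl19, Ccl21a, Cxcr5, Lta and Tnfsf11, whose lowest tumors had 0 to 4 reads.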
